A study of Homo sapiens with 18 samples.

Results

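The mRNAs of the translation initiation factors were followed in human cells that received a microRNA mimic of the MIR-28 family. Members were all rows of the expression tables whose gene symbol begins with EIF1, EIF2, EIF3, EIF4, EIF5 or EIF6, a rule that reads the symbol alone. Of 58 such symbols, 5 were left out because they name the eIF2 kinases (EIF2AK) or an RNA beside one of them, and 53 members remained among 16715 genes in both tables together. Of the 53, 50 are protein coding and 3 are long non-coding RNAs that lie beside a factor gene or within its span. The table of MCF10A cells listed 52 of them and that of hTERT RPE-1 cells listed 51. The libraries came from MCF10A, an immortalised human breast epithelial line, and from hTERT RPE-1 (RPE-1 below), a human retinal pigment epithelial line immortalised with telomerase. In each line 3 groups of 3 biological replicates received a non-targeting siRNA (siNT), a mimic of hsa-miR-28-5p (miR-28) or a mimic of hsa-miR-708-5p (miR-708), each at 30 nM for 72 h, before polyA+ RNA was sequenced. Every change below is relative to siNT of the same line unless said otherwise, and both mimics of a line were compared with the same siNT libraries. Replicates were numbered 7 to 9 in MCF10A and 1 to 3 in RPE-1, and values by library are given in that order.

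Initiation factors bring the small ribosomal subunit and the initiator tRNA to the start codon of an mRNA. eIF2 carries the initiator tRNA and is recharged with GTP by eIF2B, while eIF3, the largest of the factors, joins the small subunit to the cap-binding complex eIF4F (the cap-binding protein eIF4E, the scaffold eIF4G and the helicase eIF4A). eIF1, eIF1A and eIF5 govern scanning and the choice of the start codon, and eIF5B helps the large subunit to join. Several of their mRNAs belong to the 5′ terminal oligopyrimidine (TOP) class, which begin with a C followed by a run of C and T and are regulated together with the mRNAs of ribosomal proteins.

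The mimics carry the same seed, which is why their sequences are shown. The seed, bases 2 to 8, is the part of a microRNA that pairs with its targets and is given in capitals. The miR-28 sequence was taken from the study's list of mimics and that of miR-708 from RefSeq (GRCh38.p14, chr11:79402077-79402099, minus strand).
hsa-miR-28-5p: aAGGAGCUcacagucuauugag
hsa-miR-708-5p: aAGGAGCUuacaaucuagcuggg
The first 8 bases are identical and 16 positions in all are alike, with lengths of 22 and 23 bases.

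The deposited value of a gene, called a scaled count here, is taken to be its estimated number of reads after division by a size factor of the library. Depth is not stated and was estimated. The value of 1 read was taken as the step that most low scaled counts of a library were whole multiples of. The estimate was 19.4 to 31.7 M reads on genes in MCF10A and 23.8 to 40.4 M in RPE-1. By it 3 reads correspond to scaled counts of 2.49 to 4.02 in MCF10A and 2.35 to 4.40 in RPE-1, a floor for counting error only. In RPE-1, miR-28 replicate 1 stood apart, with 15.1% of its reads on rRNA genes against 4.23% to 7.20% in the other 8 libraries of the line. The summed scaled count of 8 interferon-response genes was 35929 in that library, 302478 and 208986 in the other miR-28 libraries, 246533 to 285362 with miR-708 and 5632 to 6269 with siNT. In MCF10A this sum was 4012 to 4128 with siNT, 5477 to 6988 with miR-28 and 61143 to 100104 with miR-708. The part of the interferon genes in the results below was not tested. All 6 breast epithelial markers were listed in MCF10A, with a summed scaled count of 149994 to 167072 with siNT, 96316 to 105601 with miR-28 and 72416 to 94795 with miR-708, and 5 of the 6, among them KRT5 and CDH1, were not listed in RPE-1. KRT5, KRT14, KRT17 and TP63 were lower with both mimics than with siNT in every MCF10A library, whereas CDH1 and EPCAM overlapped siNT with both mimics. Of 7 pigment epithelial markers 5 were listed in RPE-1, at 2935 to 3729 with siNT, 1933 to 2064 with miR-28 and 2097 to 2259 with miR-708, without RPE65 and TYR, which define the differentiated tissue. Within that sum MITF and OTX2 were lower with both mimics than with siNT in every library, and RLBP1 and BEST1 were higher. RLBP1 with siNT, at 1.47 to 4.05, was near the level of 3 reads. PMEL was uneven in RPE-1, at 9.12 to 544 with siNT, 1.16 to 3.27 with miR-28 and 3.14 to 10.5 with miR-708. The pigment list did not mark RPE-1 alone, because 4 of the 7 were listed in MCF10A, RPE65 among them. Their summed scaled count in MCF10A was 827 to 1141 with siNT, 1398 to 1676 with miR-28 and 1118 to 1512 with miR-708. The summed scaled count of 4 mesenchymal markers was 23732 to 40891 with siNT, 22022 to 65268 with miR-28 and 38203 to 88297 with miR-708 in MCF10A. In RPE-1 it was 1218530.0 to 1904680.0 with siNT, 1429670.0 to 1827360.0 with miR-28 and 927813 to 1067880.0 with miR-708. Most of the sum in RPE-1 was FN1, at 1068990.0 to 1729290.0 with siNT and 787993 to 945043 with miR-708. VIM and CDH2 were also lower with miR-708 than with siNT in every RPE-1 library, whereas ZEB1 was higher (2908 to 3062 against 2598 to 2753). The part of these markers in the results was not tested.

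Changes are log2 fold changes of the scaled count plus 1 with their SE, and a gene was called when its adjusted p fell below 0.05 (limma with Benjamini-Hochberg adjustment over all genes tested in the line). The filter on low values was passed by 51 of 52 members in MCF10A and 50 of 51 in RPE-1. With miR-28 in MCF10A, 18 of 51 members were lower and 2 higher, where 12% of all genes tested were lower and 10.7% higher. With miR-708 in MCF10A, 20 were lower and 2 higher, against 17.3% and 15.5% of all genes. With miR-28 in RPE-1, 19 of 50 members were lower and 7 higher, against 23.5% and 23.3% of all genes. With miR-708 in RPE-1, 23 were lower and 12 higher, against 31.2% and 30.9% of all genes. The median log2 fold change of the members was −0.26 and −0.23 with miR-28 and miR-708 in MCF10A and −0.17 and −0.22 in RPE-1, while that of all genes lay between −0.0047 and 0.0061. In RNA from whole cultures, fewer cells of a kind and less RNA per cell cannot be told apart.

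Of the 50 members tested in both lines, 13 were called lower in all 4 comparisons with siNT, where 5.67% of all 13339 genes tested in both lines were. They were EIF2A, EIF2D, EIF2S3, EIF2S3B, EIF3C, EIF3CL, EIF3E, EIF3F, EIF3G, EIF3H, EIF3K, EIF3L and EIF4B. EIF2S3 with EIF2S3B, and EIF3C with EIF3CL, are near-identical copies that may share reads, so their rows are not independent in this count. EIF5 and EIF5A2 were called higher in all 4, which held for 4.33% of all genes. EIF3D was called in both directions, 23 members were called in some comparisons without a change of direction, and 11 were called in none. When the libraries were scaled by their total instead, the median of all genes rose to 0.12 and 0.14 in MCF10A and to 0.092 and 0.32 in RPE-1 (miR-28 and miR-708). Relative to that shift the members' median was −0.27 and −0.23 in MCF10A and −0.17 and −0.22 in RPE-1. These relative values are no separate check, because the scaling moves all genes of a library by nearly the same amount. Without that correction the members' median turned to 0.10 with miR-708 in RPE-1, and the calls there became 15 lower and 17 higher.

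**Figure D1:**
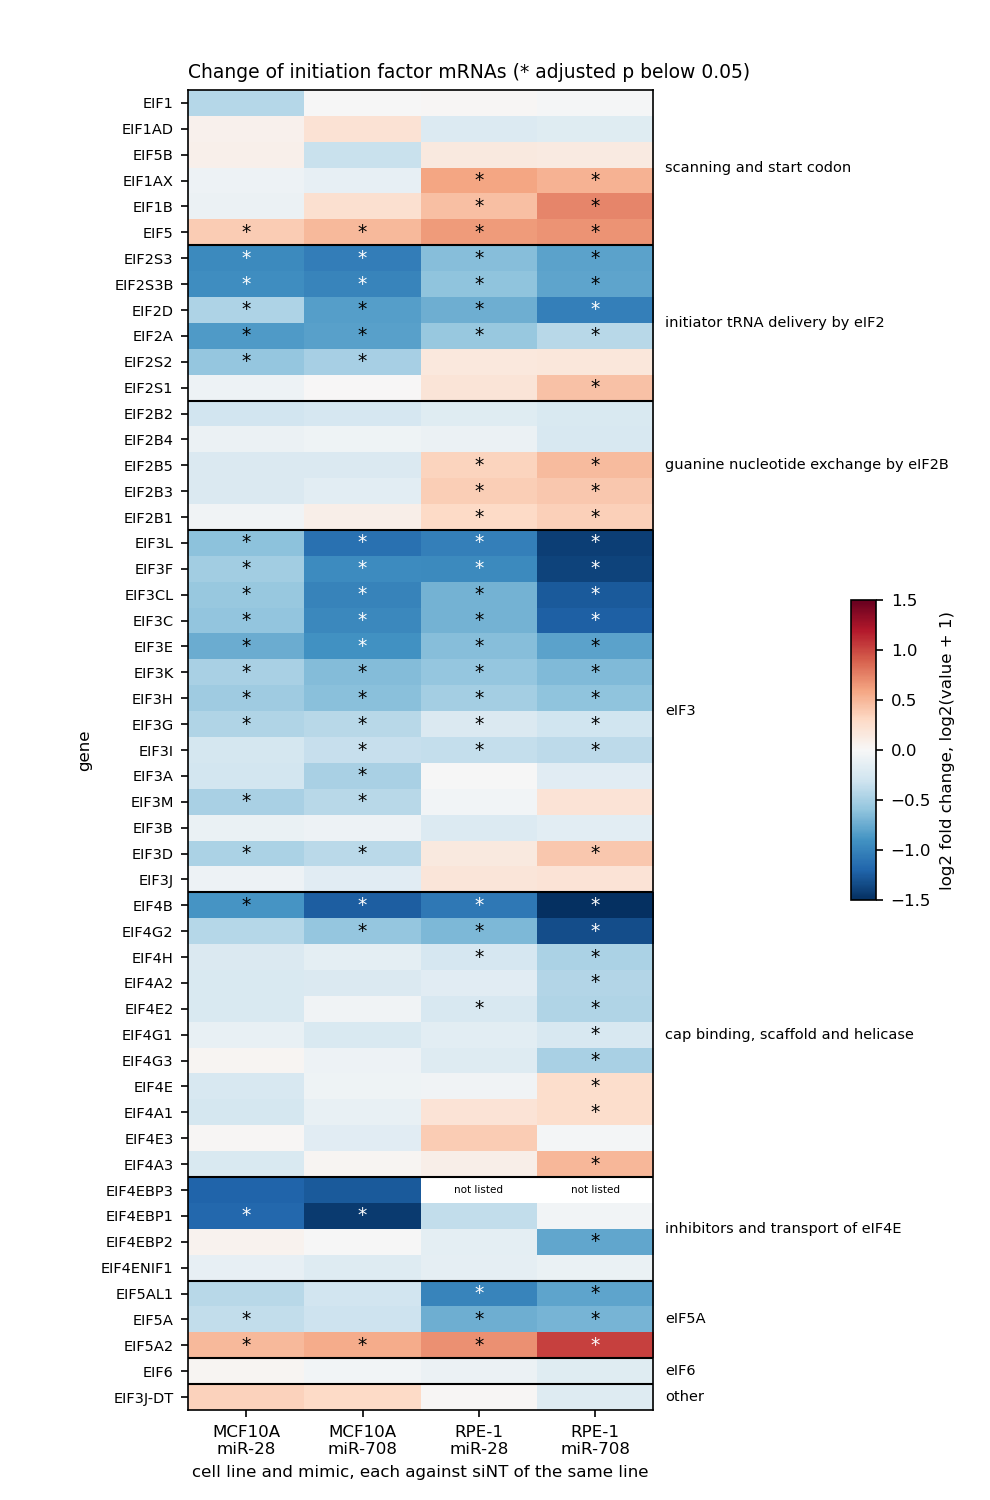
Log2 fold change against siNT of the same line for the 51 members tested in at least 1 line, grouped by role, with columns for line and mimic, blue for lower and red for higher and asterisks for adjusted p below 0.05. EIF2S3, EIF2S3B, EIF2A, EIF2D, EIF4B and 8 of the eIF3 rows are blue with asterisks in all columns, EIF5 and EIF5A2 are red throughout, and EIF2B1, EIF2B3 and EIF2B5 carry asterisks only in RPE-1.

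eIF3, the platform that holds the initiation complex on the small subunit, was the largest group of members. Of its 14 rows, 10 were lower with miR-28 in MCF10A, 12 with miR-708 in MCF10A and 9 with each mimic in RPE-1. EIF3D with miR-708 in RPE-1 was the 1 call in the other direction. Among all genes tested, 12% and 17.3% were lower in MCF10A and 23.5% and 31.2% in RPE-1 (miR-28 and miR-708). The near-identical EIF3C and EIF3CL count as separate rows here, though their reads may be shared. The group's median log2 fold change was −0.49 and −0.56 in MCF10A and −0.43 and −0.50 in RPE-1 (miR-28 and miR-708). When the libraries were scaled by their total it was −0.38, −0.41, −0.35 and −0.18, and the calls became 10 and 9 lower in MCF10A, 7 lower and 1 higher with miR-28 in RPE-1 and 7 lower and 3 higher with miR-708 in RPE-1.

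EIF3L, a subunit of the eIF3 complex, showed the largest fall of the group averaged over the comparisons. In MCF10A its scaled count was 11083, 11929 and 10519.5 with siNT, 5974, 8181 and 7973 with miR-28, and 5677, 4689.8 and 5054 with miR-708. For RPE-1 the values were 7893, 7889.9 and 8154 with siNT, 5469.9, 3044 and 3643 with miR-28, and 3519, 2695 and 2873 with miR-708. No library with a mimic reached the lowest siNT library of its line. The log2 fold changes were −0.61 ± 0.13 and −1.12 ± 0.13 in MCF10A (limma, adjusted p = 0.00739 and 0.000141) and −1.02 ± 0.18 and −1.41 ± 0.18 in RPE-1 (adjusted p = 0.00114 and 7.19e-05).

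EIF3F, a core subunit whose mRNA is of the TOP class, behaved in the same way. MCF10A gave 4665, 4955 and 5051 with siNT, 3093, 3512 and 3619 with miR-28, and 2819, 2299.9 and 2513 with miR-708. RPE-1 gave 4993, 5124 and 5327 with siNT, 3388, 2047 and 2697 with miR-28, and 2267, 1654 and 2023 with miR-708. The 3 groups did not overlap in MCF10A, whereas in RPE-1 the mimics overlapped each other and not siNT. Its log2 fold changes were −0.52 ± 0.10 and −0.95 ± 0.10 in MCF10A and −0.95 ± 0.17 and −1.39 ± 0.17 in RPE-1, with adjusted p between 4.32e-05 and 0.00498 (limma). In RPE-1 the highest miR-28 library for both EIF3L and EIF3F was replicate 1, the library with the high rRNA share, and without it their log2 fold changes were −1.26 ± 0.12 and −1.13 ± 0.14.

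EIF3C and EIF3CL encode the same core subunit from near-identical copies on chromosome 16, and the table gives both rows 1 shared span, so how the reads were split between them is uncertain. EIF3C was at 66.4% to 68.7% of EIF3CL in the group means of MCF10A and at 77.9% to 80.2% in those of RPE-1. For EIF3CL the MCF10A libraries gave 16969.9, 15005 and 14301 with siNT, 9730.2, 10346 and 10973 with miR-28, and 9467, 7341 and 6531 with miR-708. Its RPE-1 libraries gave 5397, 4996 and 5558, then 3558, 3004 and 3217, then 2245, 2205 and 2189, in the same order of groups. The miR-708 libraries lay below all miR-28 libraries in both lines. EIF3C gave 11327, 10479.7 and 9239 with siNT, 6925, 6353 and 7304 with miR-28 and 6236, 5018 and 4687 with miR-708 in MCF10A. In RPE-1, EIF3C gave 4394, 3906 and 4137, then 2865, 2182 and 2594, then 1832, 1692 and 1803.5. Changes of EIF3C were −0.59 ± 0.12 and −0.97 ± 0.12 in MCF10A and −0.71 ± 0.10 and −1.22 ± 0.10 in RPE-1, and those of EIF3CL were −0.57 ± 0.14, −1.001 ± 0.14, −0.71 ± 0.08 and −1.26 ± 0.08, all of them called.

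EIF3E, another TOP mRNA and a subunit of the complex, fell in both lines. Its scaled count in MCF10A was 37723, 37761 and 41279 with siNT, 21724, 25312 and 22615 with miR-28, and 21494, 20569.7 and 19932 with miR-708. The RPE-1 libraries held 6909, 6356 and 7783, then 5188, 4108 and 4296, then 4613, 3571 and 3955. Every mimic library lay below every siNT library of its line. On the log2 scale the changes were −0.75 ± 0.11 and −0.91 ± 0.11 in MCF10A and −0.63 ± 0.12 and −0.80 ± 0.12 in RPE-1 (limma, adjusted p = 0.000214 to 0.00204). EIF3H and EIF3K, further subunits, ranged from −0.62 to −0.51 and from −0.66 to −0.49 over the 4 comparisons. EIF3G, the subunit that contacts eIF4B, ranged from −0.45 to −0.21, and its call with miR-28 in RPE-1 (limma, adjusted p = 0.0452) was lost under 12 of 18 alternatives, among them leaving out siNT replicate 1 or 2, miR-28 replicate 1 or 2, or any miR-708 library. Its call with miR-708 in RPE-1 ended when the libraries were scaled by their total, where the value turned to 0.0177.

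The remaining eIF3 subunits did not follow the same pattern in both lines. EIF3D, the subunit that can itself bind the cap of some mRNAs, stood at 8413 ± 153 with siNT, 6122 ± 941 with miR-28 and 6355 ± 343.2 with miR-708 in MCF10A (mean ± SD, n = 3). The corresponding means in RPE-1 were 3485 ± 151, 3851 ± 87.3 and 4628 ± 183. It was lower with both mimics in MCF10A (−0.47 ± 0.11 and −0.41 ± 0.11, limma, adjusted p = 0.0141 and 0.0190) and higher with miR-708 in RPE-1 (0.41 ± 0.07, adjusted p = 0.000657). The call with miR-708 in MCF10A was lost when siNT replicate 7 or 8 or miR-708 replicate 8 or 9 was left out. EIF3M was lower in MCF10A (−0.48 ± 0.11 and −0.41 ± 0.11) and gave −0.04 ± 0.09 and 0.20 ± 0.09 in RPE-1, and both calls were lost without siNT replicate 9 and the second also without miR-708 replicate 8 or 9. EIF3A, the largest subunit and a TOP mRNA, was called with miR-708 in MCF10A only (−0.49 ± 0.12). EIF3I was called in all comparisons but miR-28 in MCF10A, from −0.40 to −0.34, and each of these calls was lost without some library (siNT replicate 8 or 9, miR-28 replicate 8 or miR-708 replicate 8 or 9 in MCF10A, siNT replicate 1 or 3 in RPE-1 for both mimics, with miR-28 replicate 2 or 3 or miR-708 replicate 1 or 3 for miR-28 and miR-708 replicate 2 for miR-708). EIF3J, a loosely bound subunit and the highest of the group on average, gave values between −0.17 and 0.20, and neither it nor EIF3B was called in any comparison. Of 5 TOP mRNAs listed from general knowledge (EIF3A, EIF3E, EIF3F, EIF3H and EIF4B), 4 were lower in each comparison except miR-708 in MCF10A, where all 5 were. Over all genes tested the shares were 12% and 17.3% in MCF10A and 23.5% and 31.2% in RPE-1 (miR-28 and miR-708).

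Among the genes that deliver the initiator tRNA, those for the γ subunit of eIF2 and for the factors that can act in place of eIF2 fell in both lines, while those for its α and β subunits did not. With each mimic 5 of 6 rows were lower in MCF10A and 4 of 6 in RPE-1, with EIF2S3 and its near-identical copy EIF2S3B as separate rows. The shares of all genes that were lower were 12% and 17.3% in MCF10A and 23.5% and 31.2% in RPE-1 (miR-28 and miR-708). EIF2S3, the γ subunit that binds GTP and the initiator tRNA, stood at 23886.5, 21749 and 22644 with siNT, 12553, 12045 and 10627 with miR-28, and 13298, 10475 and 9668 with miR-708 in MCF10A. In RPE-1 it stood at 6035, 5794 and 6467, then 3842, 4239 and 3722, then 3525, 3371 and 3554. The mimic libraries were clear of siNT in both lines. Its log2 fold changes were −0.96 ± 0.13 and −1.04 ± 0.13 in MCF10A and −0.63 ± 0.08 and −0.81 ± 0.08 in RPE-1 (limma, adjusted p = 1.33e-05 to 0.000839).

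EIF2S3B, on chromosome 12, is a near-identical copy of EIF2S3, and it kept to 4.76% to 4.94% of the EIF2S3 value in the group means of MCF10A and 3.51% to 3.55% in those of RPE-1. Its values may be reads of EIF2S3 and are uncertain, and they were 1137, 1045 and 1068 with siNT, 553, 652 and 502 with miR-28 and 709.8, 533 and 424 with miR-708 in MCF10A. For RPE-1 they were 216, 227 and 196, then 128, 144 and 147, then 132, 116 and 120.4. EIF2A, a factor that can bring the initiator tRNA without GTP, stood at 7613, 7091 and 7539 with siNT, 4068, 4399 and 3932 with miR-28, and 4487, 4086 and 4089.6 with miR-708 in MCF10A. Its RPE-1 values were 3088, 3045 and 3388, then 2317, 2144 and 1966, then 2647, 2220.1 and 2293. Again no mimic library reached siNT, and the log2 fold changes of EIF2A were −0.84 ± 0.09 and −0.81 ± 0.09 in MCF10A and −0.57 ± 0.10 and −0.41 ± 0.10 in RPE-1, the last of which was not called when libraries were scaled by their total.

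EIF2D, a factor that delivers tRNA to the ribosome without GTP, stood at 2290.0, 2601 and 2521 with siNT, 1469, 1928 and 2032 with miR-28, and 1358, 1456 and 1351 with miR-708 in MCF10A. RPE-1 libraries held 1066, 1010.4 and 993, then 709, 529 and 627, then 531, 475 and 503. All mimic libraries lay below siNT, with log2 fold changes of −0.46 ± 0.12 and −0.83 ± 0.12 in MCF10A and −0.73 ± 0.11 and −1.02 ± 0.11 in RPE-1. The call with miR-28 in MCF10A (limma, adjusted p = 0.0200) was lost when siNT replicate 8 or 9 was left out. EIF2S2, the β subunit, was lower in MCF10A (−0.58 ± 0.11 and −0.50 ± 0.11) and gave 0.16 ± 0.08 and 0.17 ± 0.08 in RPE-1, where it was not called. EIF2S1, the α subunit that the stress kinases phosphorylate, gave −0.07 ± 0.09 and 0.01 ± 0.09 in MCF10A and 0.19 ± 0.10 and 0.44 ± 0.10 in RPE-1, and only the last was called (limma, adjusted p = 0.00252).

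EIF4B showed the lowest log2 fold change of any member that was called. Its product stimulates the helicase eIF4A, and its mRNA is of the TOP class. In MCF10A its scaled count was 44684, 44900.1 and 48121.5 with siNT, 21687, 27303 and 26043 with miR-28, and 20888, 18336.5 and 19149 with miR-708. The values in RPE-1 were 20258, 19029.8 and 21427.5, then 11775, 8380.0 and 8963, then 7597, 6848 and 6925. The 3 groups were separate in both lines. Changes were −0.88 ± 0.13 and −1.24 ± 0.13 in MCF10A (limma, adjusted p = 0.00107 and 6.92e-05) and −1.07 ± 0.12 and −1.51 ± 0.12 in RPE-1 (adjusted p = 7.91e-05 and 3.68e-06), and miR-708 left 0.424 and 0.352 of the siNT value. Without miR-28 replicate 1 the change with miR-28 in RPE-1 was −1.22 ± 0.10.

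EIF4G2, an eIF4G relative that does not bind eIF4E and serves initiation without the usual cap complex, fell with miR-708 in MCF10A and with both mimics in RPE-1. MCF10A libraries held 46681, 44958 and 44567 with siNT, 34218, 34460.5 and 32974 with miR-28, and 38141, 27665 and 26576 with miR-708. Those of RPE-1 held 50835, 51426 and 57504, then 37259, 30181 and 32942, then 22971, 19374.5 and 21413. In RPE-1 the 3 groups were separate, whereas in MCF10A the mimics overlapped each other. The log2 fold changes were −0.42 ± 0.15 and −0.58 ± 0.15 in MCF10A (limma, adjusted p = 0.0621 and 0.0122) and −0.67 ± 0.12 and −1.33 ± 0.12 in RPE-1 (adjusted p = 0.00118 and 6.93e-06). With the replicate number as a block, the first of these was called (limma, adjusted p = 0.0364), and without miR-708 replicate 8 or 9 the second was not. Relative to the scaled count of EIF4G1, the main scaffold, EIF4G2 went from 298% ± 34.2 with siNT to 234.1% ± 26.97 with miR-708 in MCF10A and from 257% ± 26.01 to 122% ± 11.5 in RPE-1 (SD, n = 3).

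The other cap-binding and helicase mRNAs were not called in MCF10A, whereas with miR-708 in RPE-1 EIF4A2, EIF4E2, EIF4G1, EIF4G3 and EIF4H were lower and EIF4A1, EIF4A3 and EIF4E were higher. Scaling the libraries by their total ended the 5 calls of lower values. EIF4G3, a second scaffold, stood at 7809 ± 347, 6806 ± 363 and 5556 ± 124 in RPE-1 (siNT, miR-28 and miR-708, SD, n = 3) and changed by −0.49 ± 0.08 with miR-708 (limma, adjusted p = 0.000290). EIF4E2, a cap-binding protein that can repress translation, changed by −0.24 ± 0.07 and −0.45 ± 0.07 in RPE-1, and its call with miR-28 was lost without siNT replicate 1 or 2. EIF4H, which like EIF4B aids eIF4A, changed by −0.25 ± 0.09 and −0.48 ± 0.09, and its call with miR-28 was lost without any 1 of 8 of the 9 libraries (all but miR-28 replicate 1). EIF4G1 gave −0.24 ± 0.09 with miR-708, which was lost without siNT replicate 1 or 2, miR-28 replicate 3 or miR-708 replicate 1 or 2. EIF4A3, the eIF4A relative of the exon junction complex and the highest of the group on average, changed by 0.50 ± 0.09 with miR-708 (limma, adjusted p = 0.000979). EIF4E, the cap-binding protein itself, stood at 1913 ± 188 with siNT and 2282 ± 84.5 with miR-708 in RPE-1 (SD, n = 3) and changed by 0.26 ± 0.10, a call that was lost without siNT replicate 1 or 2 or miR-708 replicate 1 or 3. EIF4A1, the main helicase, changed by 0.27 ± 0.09, also lost without any of these 4 libraries. EIF4A2, its paralog, went from 55.2% ± 3.07 of the EIF4A1 scaled count with siNT to 33.8% ± 3.66 with miR-708 in RPE-1, while in MCF10A the shares were 27.1% ± 0.520 and 25.2% ± 1.58. EIF4E3 gave values between −0.17 and 0.38 and was not called.

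The inhibitors of eIF4E differed by line. EIF4EBP1, which binds eIF4E and blocks its use until mTOR phosphorylates it, is shown by library because of that difference, a choice made after its values were seen. Its scaled counts in MCF10A were 1665, 1147 and 1903 with siNT, 709, 562 and 784 with miR-28, and 698, 516 and 509 with miR-708. Those in RPE-1 were 578, 610.1 and 423, then 376, 451 and 403, then 521, 466 and 565. Every mimic library lay below siNT in MCF10A, and each mimic overlapped siNT in RPE-1. The log2 fold changes were −1.18 ± 0.20 and −1.44 ± 0.20 in MCF10A (limma, adjusted p = 0.00249 and 0.000381) and −0.37 ± 0.15 and −0.04 ± 0.15 in RPE-1 (adjusted p = 0.0603 and 0.833). EIF4EBP2, a second inhibitor of the family, was called only with miR-708 in RPE-1, at 12237 ± 858 with siNT, 11115 ± 1801.5 with miR-28 and 7155 ± 574 with miR-708 (SD, n = 3), a change of −0.78 ± 0.12 (limma, adjusted p = 0.000290). EIF4EBP3, a further inhibitor, was listed in MCF10A only and had few reads (38.5 ± 2.45 with siNT, 26.4 ± 21.4 with miR-28 and 16.3 ± 6.73 with miR-708), 1 miR-28 library was under the level of 3 reads, and its log2 values of −1.21 ± 0.80 and −1.26 ± 0.80 were not called. EIF4ENIF1, which carries eIF4E into the nucleus, gave values between −0.19 and −0.10 and was not called.

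**Figure D2:**
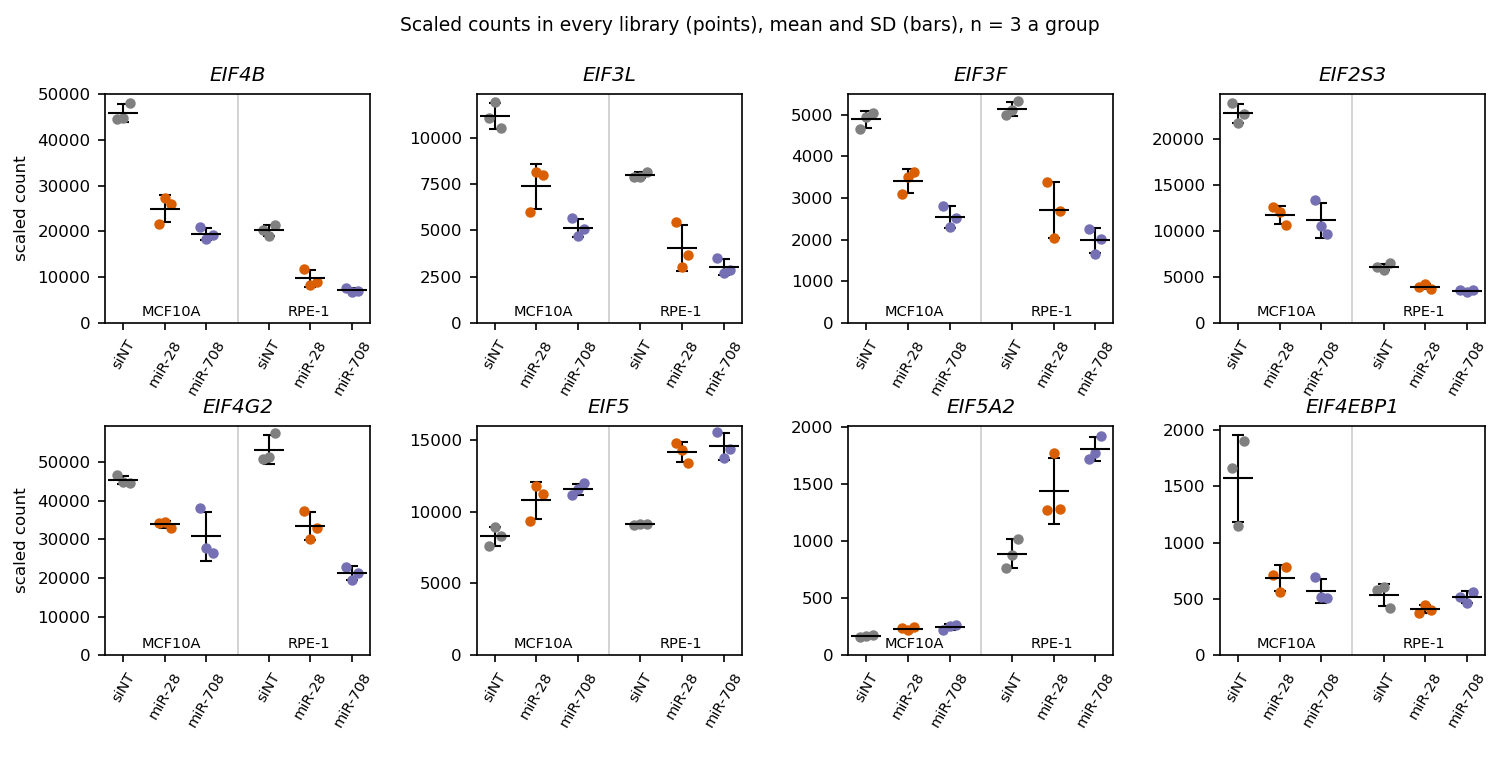
Scaled counts of 8 members in every library, with points for libraries, bars for the mean and SD of 3 replicates, grey for siNT, orange for miR-28 and violet for miR-708. EIF4B, EIF3L, EIF3F, EIF2S3 and EIF4G2 lie lower with the mimics in both lines, EIF5 and EIF5A2 lie higher, and EIF4EBP1 lies lower in MCF10A while its groups overlap in RPE-1.

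Among the scanning factors, EIF5 rose in both lines and EIF1AX and EIF1B in RPE-1. EIF5 is the GTPase-activating protein of eIF2 that acts when the start codon is found, and its values by library were added after they were seen. In MCF10A they were 7622, 8925 and 8329.7 with siNT, 9357, 11815 and 11205 with miR-28, and 11188, 11551 and 11975 with miR-708. RPE-1 libraries gave 9066, 9132 and 9151, then 14759, 14288 and 13396, then 15578, 13747 and 14337. All mimic libraries lay above siNT. The changes were 0.38 ± 0.11 and 0.48 ± 0.11 in MCF10A (limma, adjusted p = 0.0320 and 0.00674) and 0.63 ± 0.08 and 0.67 ± 0.08 in RPE-1 (adjusted p = 0.000196 and 5.83e-05). The call with miR-28 in MCF10A was lost without siNT replicate 7 or 9 or miR-28 replicate 8 or 9.

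EIF1AX, which opens the small subunit for scanning, stood at 2842 ± 352 with siNT, 4261 ± 207 with miR-28 and 4077 ± 476 with miR-708 in RPE-1 (SD, n = 3) and changed by 0.59 ± 0.11 and 0.52 ± 0.11. In MCF10A it gave −0.07 ± 0.12 and −0.12 ± 0.12. EIF1B, a relative of the start-codon factor eIF1, changed by 0.45 ± 0.09 and 0.74 ± 0.09 in RPE-1 and gave −0.08 ± 0.10 and 0.24 ± 0.10 in MCF10A. EIF1, the lowest of the group on average, gave −0.42 ± 0.14 with miR-28 in MCF10A (limma, adjusted p = 0.0519), which was called with the replicate number as a block (adjusted p = 0.0227), and between −0.01 and 0.02 in the other 3 comparisons. EIF1AD and EIF5B were not called.

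No eIF2B gene, of the exchange factor that recharges eIF2 with GTP, was called lower. None of its 5 subunit genes was called in MCF10A, and EIF2B1, EIF2B3 and EIF2B5 were higher with both mimics in RPE-1. EIF2B5, the catalytic subunit, stood at 760.5 ± 21.5 with siNT, 961 ± 21.4 with miR-28 and 1058 ± 20.7 with miR-708 in RPE-1 (SD, n = 3), changes of 0.34 ± 0.08 and 0.48 ± 0.08 (limma, adjusted p = 0.00460 and 0.000322). EIF2B3, another catalytic-side subunit, changed by 0.37 ± 0.10 and 0.40 ± 0.10, and EIF2B1, a regulatory subunit and the highest of the group on average, by 0.29 ± 0.07 and 0.35 ± 0.07. In MCF10A, EIF2B5 gave −0.22 ± 0.09 and −0.22 ± 0.09, EIF2B3 gave −0.21 ± 0.11 and −0.16 ± 0.11, and EIF2B1 gave −0.05 ± 0.09 and 0.09 ± 0.09. EIF2B2, the lowest of the group on average, gave between −0.28 and −0.18 and was not called, nor was EIF2B4.

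The eIF5A genes, whose product carries the amino acid hypusine and keeps ribosomes moving, went in opposite directions. EIF5A2, the paralog with fewer reads, stood at 159, 168 and 175 with siNT, 241, 217 and 244 with miR-28, and 217, 258.4 and 264 with miR-708 in MCF10A. In RPE-1 the libraries held 768, 878 and 1024, then 1274, 1779 and 1283, then 1723, 1775 and 1924. No mimic library fell to the siNT range. Its log2 fold changes were 0.48 ± 0.15 and 0.55 ± 0.15 in MCF10A (limma, adjusted p = 0.0384 and 0.0153) and 0.69 ± 0.14 and 1.03 ± 0.14 in RPE-1 (adjusted p = 0.00282 and 0.000121). Leaving out any siNT or miR-28 library or miR-708 replicate 8 ended the first call, and leaving out miR-708 replicate 8 or 9 ended the second. EIF5A gave −0.37 ± 0.11 and −0.31 ± 0.11 in MCF10A (limma, adjusted p = 0.0315 and 0.0521) and −0.73 ± 0.10 and −0.70 ± 0.10 in RPE-1 (adjusted p = 0.000213 and 0.000132). The MCF10A call of EIF5A with miR-28 was lost without siNT or miR-28 replicate 7 or 8, and with miR-708 it was called under the replicate block (limma, adjusted p = 0.0477). The scaled count of EIF5A2 went from 1.40% ± 0.170 of that of EIF5A to 2.55% ± 0.423 with miR-708 in MCF10A and from 10.9% ± 2.04 to 36.0% ± 4.06 in RPE-1 (SD, n = 3). EIF5AL1, a copy of EIF5A, gave −0.99 ± 0.16 and −0.79 ± 0.16 in RPE-1, and since it stayed at 2.65% to 3.84% of EIF5A in the group means its reads may be those of EIF5A.

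EIF6, which keeps the ribosomal subunits apart until a large subunit is mature, gave values between −0.18 and 0.03 and was not called. The non-coding EIF3J-DT, which starts beside EIF3J on the other strand without overlapping its span, gave values between −0.20 and 0.35 and was not called. EIF1AX-AS1 lies within the span of EIF1AX on the other strand, and the strand setting of the counting is not given in the sources used here. Reads of EIF1AX-AS1 and EIF1AX may therefore be mixed. EIF1AX-AS1 (MCF10A, scaled count 0.913 to 12.1) and EIF1B-AS1 (RPE-1, 1.01 to 12.4) did not pass the filter, and 4 and 2 of their 9 libraries were at or under the level of 3 reads. EIF1AD, EIF5B, EIF2B4, EIF3B and EIF4E3, the 5 uncalled members outside the naming rule, ranged from −0.33 to 0.38 (limma, adjusted p of at least 0.0773).

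The sequence at the annotated start of transcription was compared because several members called lower are TOP mRNAs. RefSeq promoter windows (GRCh38.p14) were found for 45 of the 53 members. In 10 of the 45 the annotated first base was a C that opened a run of at least 5 C or T on the sense strand, against 5.14% of 12030 promoters of genes tested. Each line below gives the 15 bases before and the 15 from the annotated start, with that run in capitals. The first 8 are members with a run, of which EIF3D and EIF4A2 were not lower in all comparisons, and the last 3, EIF5, EIF5A2 and EIF2B5, are members that rose and have none.
EIF2A: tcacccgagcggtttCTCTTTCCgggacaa
EIF2D: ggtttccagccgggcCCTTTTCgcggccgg
EIF2S3: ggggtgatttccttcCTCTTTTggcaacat
EIF3F: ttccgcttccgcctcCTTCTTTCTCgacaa
EIF3K: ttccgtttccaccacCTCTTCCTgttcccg
EIF4B: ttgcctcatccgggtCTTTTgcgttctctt
EIF3D: gcgcgcgcatgtttcCTCTTTTCCTggttt
EIF4A2: gttgggcgccgctgtCTTTTCagtcgggcg
EIF5: gcggcggcgttgttcagtcagagcgagaac
EIF5A2: cccgccccgtctcttggaactgccgcggcc
EIF2B5: ggtggcagcttccttgcggaagtggtgacc
These windows lie at chr3:150546772-150546801 (EIF2A, plus strand), chr1:206612451-206612480 (EIF2D, minus), chrX:24054941-24054970 (EIF2S3, plus), chr11:7987322-7987351 (EIF3F, plus), chr19:38619173-38619202 (EIF3K, plus) and chr12:53006441-53006470 (EIF4B, plus). Those of the others lie at chr22:36529152-36529181 (EIF3D, minus), chr3:186783562-186783591 (EIF4A2, plus), chr14:103334222-103334251 (EIF5, plus), chr3:170908623-170908652 (EIF5A2, minus) and chr3:184135343-184135372 (EIF2B5, plus).

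The 10 members with a run were EIF2A, EIF2D, EIF2S3, EIF2S3B, EIF3D, EIF3F, EIF3K, EIF3M, EIF4A2 and EIF4B. Of these, 7 were lower in all 4 comparisons with siNT, against 1 (EIF3C) of the 32 with a window and no run that were tested in both lines. By comparison, 9 of the 10 were lower with each mimic in MCF10A, and in RPE-1 7 were lower with miR-28 and 8 with miR-708, where EIF3D was higher. All genes tested gave 12% and 17.3% lower in MCF10A and 23.5% and 31.2% in RPE-1 (miR-28 and miR-708). The median log2 fold change of the 10 was −0.51 and −0.82 in MCF10A and −0.59 and −0.73 in RPE-1, and that of the members with no run was −0.11, −0.11, −0.07 and −0.13. The 8 members without a window (EIF2S2, EIF3A, EIF3CL, EIF3E, EIF3G, EIF3H, EIF3L and EIF4EBP1) had medians of −0.58, −0.77, −0.44 and −0.45. Among the other genes tested in both lines, 13.7% of the 554 with such a run and 5.49% of the 9773 without were lower in all 4 comparisons. The run is a match to the annotated start and not a mapped cap site, EIF2S3 and EIF2S3B share sequence, and the part of the run in the changes was not tested.

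**Figure D3:**
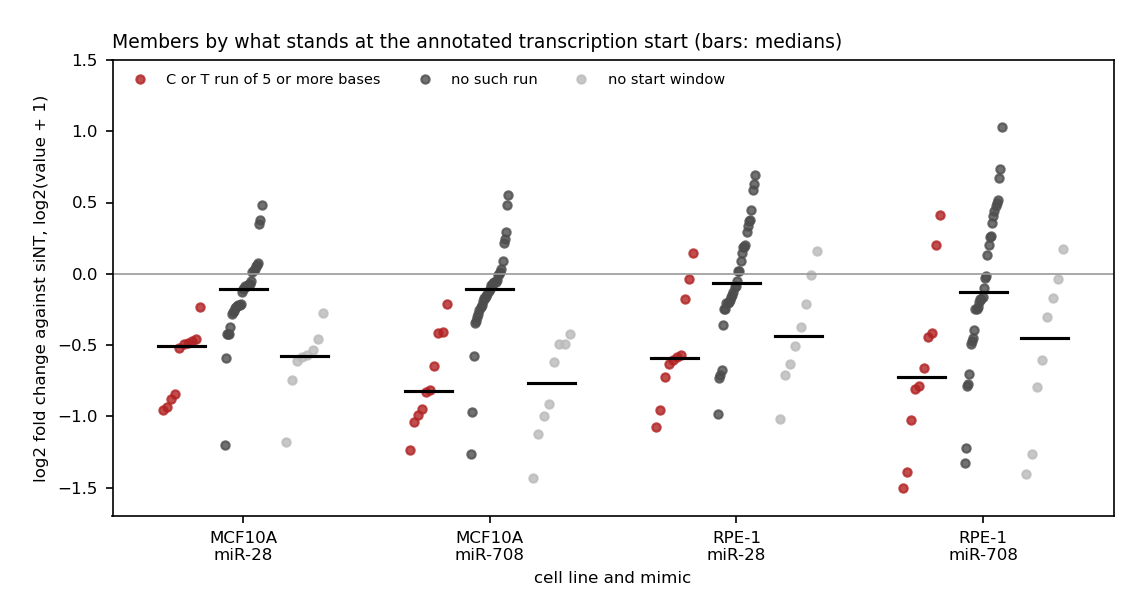
Log2 fold change of each member against siNT, by line and mimic, for members with a run of 5 or more C or T at the annotated start (red), without one (dark grey) and without a start window (light grey), with bars at the medians. The red medians lie between −0.82 and −0.51 and the dark grey ones between −0.13 and −0.07.

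Matches to the shared seed were counted in the 3′ UTR of the main transcript of each member (GENCODE 44, hg38), as AGCTCCT (pairing with bases 2 to 8 of the mimics) or GCTCCTA (bases 2 to 7 and an A), on the sense strand. A match was found in 7 of 50 members, EIF2A, EIF2B3, EIF3H, EIF3M, EIF4A1, EIF4E3 and EIF4EBP2, against 18.7% of 13775 genes tested. Of the sites 3 are shown with the match in capitals, for a member lower in all comparisons (EIF2A), a member with both matches overlapping in 1 site (EIF2B3) and a member lower with miR-708 in RPE-1 (EIF4EBP2).
EIF2A: aaatattttggAGCTCCTtctata
EIF2B3: gtccaatgtaaAGCTCCTAggaag
EIF4EBP2: gtgattttgtctGCTCCTAgagca
They lie at chr3:150585535-150585558 (plus strand), chr1:44850646-44850669 (minus) and chr10:70422591-70422614 (plus). Of the 7 members, 3 were lower with each mimic in MCF10A, and in RPE-1 2 were lower and 1 higher with miR-28 and 3 were lower and 2 higher with miR-708. With miR-28 and miR-708, 12% and 17.3% of all genes were lower and 10.7% and 15.5% higher in MCF10A. In RPE-1 the shares were 23.5% and 31.2% lower and 23.3% and 30.9% higher. The 7 members had a median log2 fold change of −0.26 and −0.17 in MCF10A and −0.04 and −0.03 in RPE-1, against −0.27, −0.26, −0.19 and −0.24 in the members without a match. EIF2B3 was higher in RPE-1, while EIF4B, EIF3L, EIF3F and EIF3C, among the members that fell most, held neither match in this UTR. The 6 letters common to both, GCTCCT (bases 2 to 7), stood in 17 of the 50 UTRs, against 35.8% of the genes tested, and 10 of the 17 held no longer match. EIF4B was among these 10, with 2 sites, shown as the member with the lowest called change, and EIF3L, EIF3F and EIF3C held none.
EIF4B, first site: ttctccttgcctGCTCCTgatgct
EIF4B, second site: gattaatgtcccGCTCCTgaatac
These lie at chr12:53041282-53041305 and chr12:53042041-53042064 (plus strand).

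The mimics were compared directly at their shared dose and time, with 51 members tested in MCF10A and 50 in RPE-1. They share the seed and differ in the bases after it. In MCF10A no member was called between them by limma, where 0.265% of all genes were lower with miR-708 and 1.28% higher, and 9 members (17.6%) had an unadjusted p below 0.05, as did 15.8% of all genes. The 95% intervals (unadjusted) of EIF3L (−0.80 to −0.23) and EIF3F (−0.65 to −0.20) did not include 0, with differences of −0.51 ± 0.13 and −0.42 ± 0.10 (limma, adjusted p = 0.0925 and 0.0741). When miR-28 replicate 7 or miR-708 replicate 7 was left out, 2 and 3 members were called.

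In RPE-1, 6 members were lower with miR-708 than with miR-28 and 3 were higher, against 11.4% and 9.88% of all genes. EIF4G2 differed most, by −0.65 ± 0.12 (limma, adjusted p = 0.00489), followed by EIF4EBP2 (−0.63 ± 0.12, adjusted p = 0.00640), EIF3CL (−0.55 ± 0.08, adjusted p = 0.00210) and EIF3C (−0.51 ± 0.10, adjusted p = 0.00721). EIF4B (−0.43 ± 0.12) and EIF4G3 (−0.29 ± 0.08) were lower too (limma, adjusted p = 0.0327 and 0.0238). EIF4A3 (0.41 ± 0.09), EIF4E (0.31 ± 0.10) and EIF3D (0.26 ± 0.07) were higher (limma, adjusted p = 0.0132, 0.0439 and 0.0274). With the replicate number as a block EIF3F (−0.43 ± 0.17) and EIF4A2 (−0.27 ± 0.09) were called too (limma, adjusted p = 0.0377 and 0.0354) and EIF4E was not (adjusted p = 0.0599). The number called depended on single libraries, with 5 without miR-28 replicate 1 or miR-708 replicate 1, 4 without miR-28 replicate 3 or miR-708 replicate 3, and 16 without miR-28 replicate 2. Without miR-28 replicate 1, the library with the high rRNA share, EIF4B differed by −0.28 ± 0.10 and was not called. The calls of EIF4G2, EIF4EBP2 and EIF3CL were kept under all 18 alternatives. Leaving out miR-28 replicate 1 or 3 or miR-708 replicate 1 or 3 ended those of EIF3D and EIF4G3, miR-28 replicate 3 or miR-708 replicate 3 that of EIF4A3, and siNT replicate 1, miR-28 replicate 1 or 3 or any miR-708 library those of EIF4B and EIF4E. Scaling by library totals gave 3 lower and 14 higher, with the median of all genes at 0.23, and ended the calls of EIF3C, EIF4B and EIF4G3. EIF5, EIF2B1 and EIF2B3, which were higher with both mimics in RPE-1, had intervals of −0.15 to 0.23, −0.10 to 0.23 and −0.19 to 0.26 for the difference between the mimics.

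**Figure D4:**
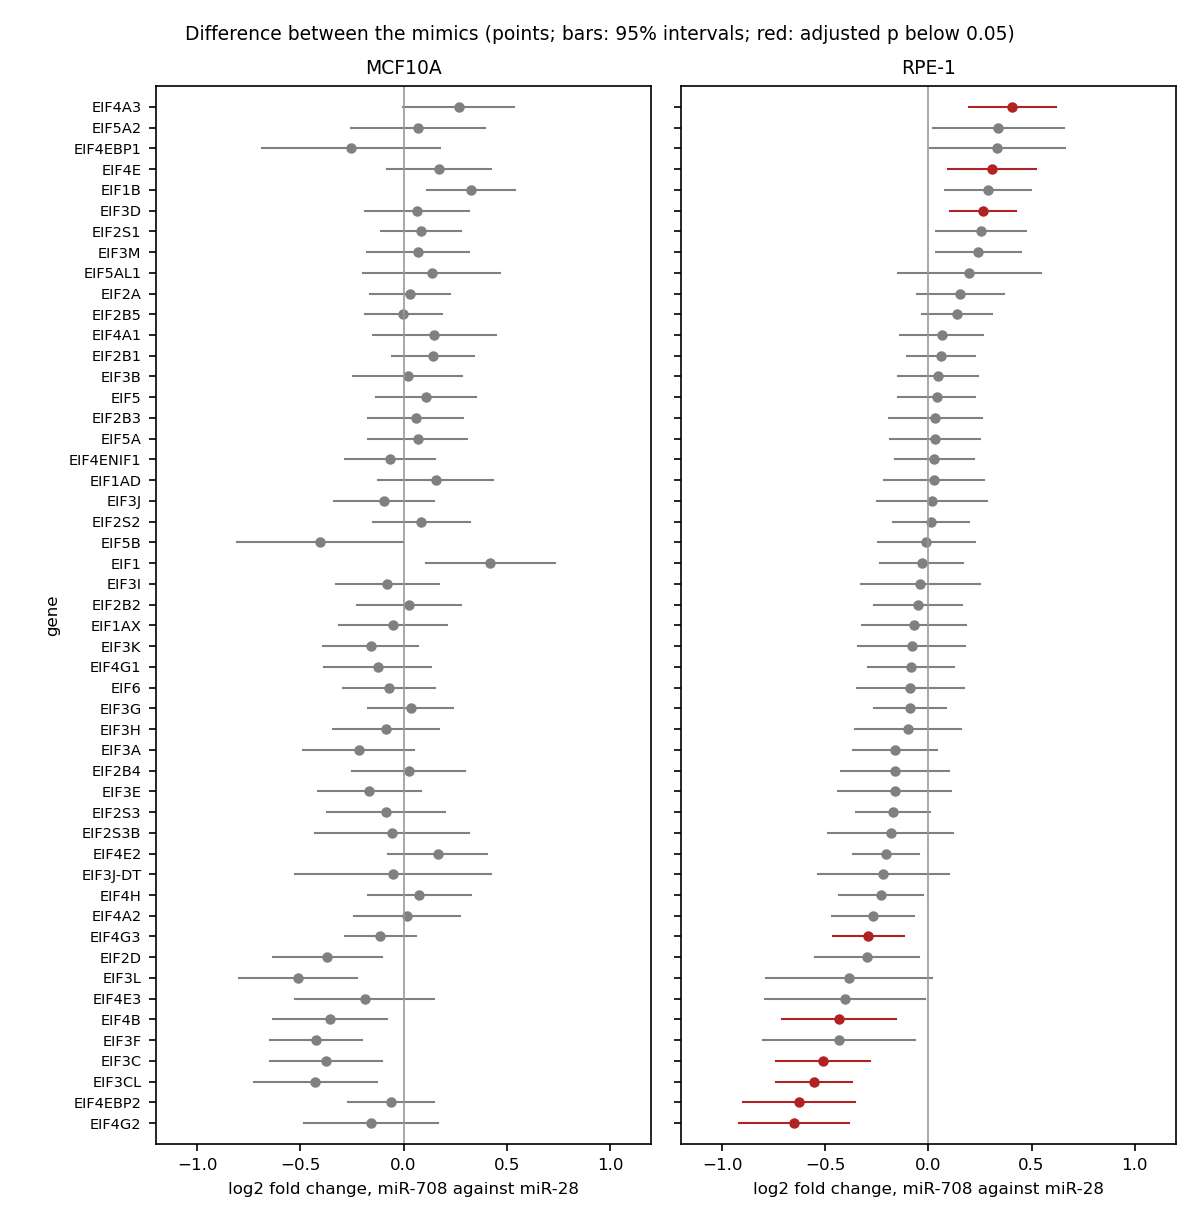
Log2 fold change of miR-708 against miR-28 for each member tested in both lines, MCF10A left and RPE-1 right, with points for the estimate, bars for the 95% interval and red for adjusted p below 0.05. In RPE-1 6 members below 0 and 3 above 0 are red, from −0.65 for EIF4G2 to 0.41 for EIF4A3, and none is red in MCF10A.

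The response to each mimic was then compared between the lines, as RPE-1 minus MCF10A. With miR-28, 10 of 50 members differed, all higher in RPE-1, where 12.1% of all genes tested were higher and 11.3% lower. With miR-708, 11 were higher and 5 lower, against 20.2% and 19.6% of all genes. The largest difference was that of EIF4EBP1, at 0.81 ± 0.25 with miR-28 and 1.40 ± 0.25 with miR-708 (limma estimates of both lines, adjusted p = 0.0226 and 0.000161), and the first was not called without MCF10A siNT replicate 7 or 9 or miR-28 replicate 8. Members that differed with both mimics, all higher in RPE-1, were EIF1AX (0.66 ± 0.16 and 0.64 ± 0.16), EIF1B (0.53 ± 0.14 and 0.49 ± 0.14), EIF2B3 (0.59 ± 0.15 and 0.56 ± 0.15), EIF2B5 (0.56 ± 0.11 and 0.70 ± 0.11), EIF2S2 (0.74 ± 0.14 and 0.67 ± 0.14), EIF3D (0.61 ± 0.14 and 0.82 ± 0.14) and EIF3M (0.44 ± 0.15 and 0.62 ± 0.15). EIF4EBP2 (−0.77 ± 0.16), EIF4G2 (−0.75 ± 0.19), EIF4G3 (−0.41 ± 0.11), EIF5A (−0.40 ± 0.15) and EIF4E2 (−0.39 ± 0.13) were lower in RPE-1 with miR-708. EIF2B1 (0.35 ± 0.12) and EIF4A1 (0.46 ± 0.16) with miR-28, and EIF2A (0.40 ± 0.13), EIF2S1 (0.43 ± 0.13) and EIF4A3 (0.46 ± 0.16) with miR-708, were higher. Without siNT replicate 9 of MCF10A, 6 members differed with miR-28. Calls that rested on single libraries were those of EIF2B1, EIF3M and EIF4A1 with miR-28, lost under 12, 9 and 19 of 27 alternatives, and of EIF5A with miR-708, lost under 8. With miR-708, EIF2A was not called without RPE-1 siNT replicate 2 or miR-708 replicate 1, EIF4A3 without MCF10A siNT replicate 8 or 9, and EIF4E2 without MCF10A siNT replicate 7 or 9. Scaling by library totals ended the calls of EIF4E2, EIF4G3 and EIF5A with miR-708. Of the 13 members lower in all comparisons with siNT, EIF2A was the 1 called for a difference between the lines.

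**Figure D5:**
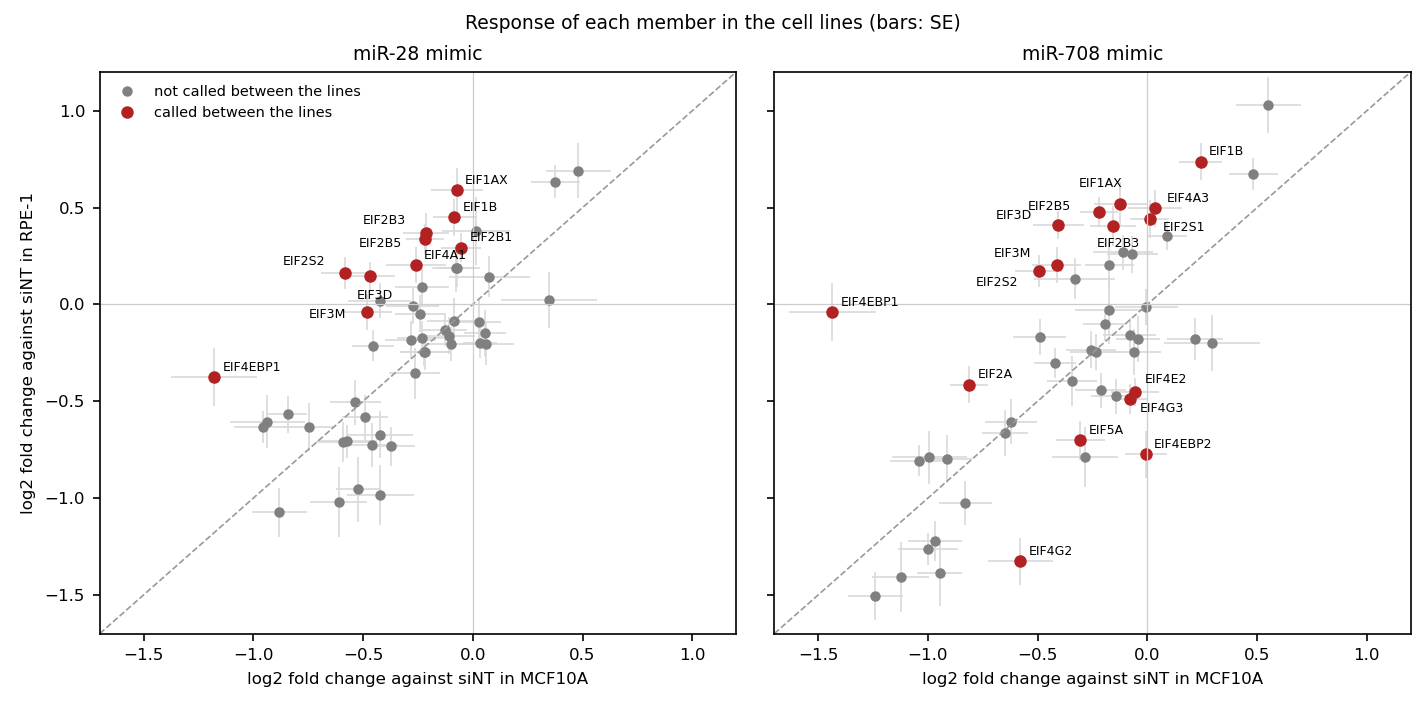
Log2 fold change against siNT in MCF10A (horizontal) and RPE-1 (vertical) of the 50 members tested in both lines, for miR-28 (left) and miR-708 (right), with bars for the SE and named red points for members whose response differed between the lines. Grey points at the lower left are members lower in both lines, and EIF4EBP1 lies far left, near 0 in RPE-1 with miR-708.

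A list of 32 partners and regulators of initiation outside these members, all of them tested, is given for comparison. With miR-28 and miR-708, 8 and 13 were lower and 2 and 5 higher in MCF10A, and 6 and 6 were lower and 6 and 7 higher in RPE-1, with medians of −0.20, −0.20, 0.01 and 0.10. Of all genes tested, 12% and 17.3% were lower and 10.7% and 15.5% higher in MCF10A, and 23.5% and 31.2% were lower and 23.3% and 30.9% higher in RPE-1. Of the 32, 3 were lower and 2 higher in all 4 comparisons, against 5.67% and 4.33% of all genes. CTIF, a scaffold that works with the nuclear cap-binding complex, was lower in all 4 comparisons, at −0.58 ± 0.12 and −0.90 ± 0.12 in MCF10A and −1.76 ± 0.12 and −2.49 ± 0.12 in RPE-1. MTOR, the kinase that acts on EIF4EBP1 and controls TOP mRNAs, gave −0.42 ± 0.11 and −0.49 ± 0.11, then −0.75 ± 0.07 and −0.47 ± 0.07, and was lower in all 4. EIF2AK1, the haem-regulated eIF2 kinase, was lower in all 4 too, between −0.50 and −0.33. MKNK1 and MKNK2, the kinases that phosphorylate eIF4E, were higher in all 4, from 0.39 ± 0.10 to 0.80 ± 0.11 and from 0.38 ± 0.10 to 1.18 ± 0.12 (limma, adjusted p of 0.0202 at most for both). EIF2AK2, an interferon-induced eIF2 kinase named after its values were seen, gave 0.24 ± 0.13 with miR-28 in MCF10A and 1.63 ± 0.13, 1.97 ± 0.32 and 2.11 ± 0.32 in the other 3 comparisons.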

How the data were processed

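PolyA+ RNA of 18 libraries was analysed, 3 for each of 3 treatments in 2 cell lines, grouped by their titles. Adapters were trimmed, reads aligned to hg38 with HISAT2 2.1.0 and RefSeq transcripts quantified in Partek Flow (E/M) by the authors. The deposited signal is taken to be estimated reads over median-of-ratios size factors, because values were not whole, none was 0, and all libraries of a table had an equal median ratio over genes to the geometric mean. Further tables hold the authors' own comparisons (ratios, p-values), which were not used. Gene positions were taken from them. The members, lists and tests were chosen with earlier results of these data known.

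The log2 of each value plus 1 was fitted with limma 3.58.1 (R 4.3.3, trend), 9 libraries and 3 group means per line, for genes reaching 10 in 3 libraries or more. The code was first checked on simulated data. Lines were scaled separately, so their levels were not compared, and log2 fold changes were compared between them with combined standard errors. Named were members called alike in all 4 comparisons with siNT, in opposite directions, between mimics or between lines, the extremes of each role group on average and those that failed the filter. Values by library were given for the 12 largest mean absolute changes of the first 3 kinds. Partners were named when called alike in all 4 comparisons.

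Same-numbered replicates deviated together from their group means for the mimics against siNT in MCF10A (correlations of 0.26, 0.18 and 0.11 for miR-28, and 0.30, 0.11 and 0.16 for miR-708) and between the mimics in RPE-1 (0.28, 0.20 and 0.13), so the replicate block is given beside those results where it changed a call. Libraries of unlike number gave −0.20 to 0.11, −0.20 to 0.074 and −0.27 to 0.0498 in the same order, so the highest of them came near the lowest same-numbered values. The pairing comes from these correlations, as no label names a shared batch. Alternatives were pseudocounts of 0.1 and 10, no filter, a filter in all 9 libraries, library size and upper quartile scaling, the replicate block, only the groups compared, no trend, and each library left out. Annotated starts came from RefSeq and UTRs from GENCODE 44.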

Additional observations from a re-analysis of the deposited data

Results flagged for a closer look

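The listed members responded differently in the lines by a test of the difference itself (limma estimates with combined standard errors, adjusted p below 0.05), given as RPE-1 minus MCF10A on the log2 scale. With miR-28 these were EIF1AX (0.66), EIF1B (0.53), EIF2B1 (0.35), EIF2B3 (0.59), EIF2B5 (0.56), EIF2S2 (0.74), EIF3D (0.61), EIF3M (0.44), EIF4A1 (0.46) and EIF4EBP1 (0.81). With miR-708 they were EIF1AX (0.64), EIF1B (0.49), EIF2A (0.40), EIF2B3 (0.56), EIF2B5 (0.70), EIF2S1 (0.43), EIF2S2 (0.67), EIF3D (0.82), EIF3M (0.62), EIF4A3 (0.46) and EIF4EBP1 (1.40), with EIF4E2 (−0.39), EIF4EBP2 (−0.77), EIF4G2 (−0.75), EIF4G3 (−0.41) and EIF5A (−0.40) lower in RPE-1. EIF3D is the member whose calls against siNT had opposite signs in the lines.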

How the results depend on the processing

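Scaling by library size moved the members' median log2 fold change to −0.15 and −0.0896 with miR-28 and miR-708 in MCF10A, −0.0822 and 0.10 with miR-28 and miR-708 in RPE-1, 0.17 for miR-708 against miR-28 in RPE-1 and 0.23 for the difference between the lines with miR-708. It raised the members called between the mimics in RPE-1 from 9 to 17, and turned EIF1, EIF3G and EIF4G1 with miR-708 in RPE-1 to 0.31, 0.0177 and 0.0746. Leaving out each library in turn gave 0 to 3 members called between the mimics in MCF10A, with a median of −0.0503 to 0.0152, 4 to 16 between the mimics in RPE-1 and 6 to 10 for the difference between the lines with miR-28, whose median was 0.0267 to 0.15. With the replicate block 2 members were called between the mimics in MCF10A. Deviations of same-numbered miR-28 and miR-708 libraries there had correlations of 0.12, 0.025 and 0.18, and those of unlike number −0.17 to 0.051. In RPE-1 the block gave 25 and 36 calls instead of 26 and 35 with miR-28 and miR-708 against siNT. For the differences between the lines the block gave 12 instead of 10 and 19 instead of 16. Library size scaling also ended the calls of EIF3D, EIF3I and EIF3M with miR-708 and of EIF2D and EIF5A with miR-28 in MCF10A, and of EIF3I with both mimics in RPE-1. The cause of these changes was not tested. Over all members, comparisons and alternatives, 7843 values kept their direction and side of the threshold, 194 lost the call, 111 gained it and 3 turned. With 3 libraries a group, depth limited EIF1AX-AS1 and EIF1B-AS1, which were near the level of 3 reads. It also limited EIF4EBP3, which had few reads and 1 miR-28 library under that level.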
